A study of Mus musculus with 24 samples.

Results

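The comparison described here sets mouse C2C12 cells in DM against the same cells in GM, both at 25 mM glucose. Its members are the cultures titled DM_25mM and GM_25mM, 3 of each, chosen by title alone. Every culture was hybridised to 2 oligonucleotide array designs, MA and MB, so the comparison uses 6 of the 12 cultures and 12 of the 24 arrays of the series. The other 6 cultures had 5 mM glucose in the same media. The series asks how calorie restriction bears on the differentiation of muscle precursor cells. GM and DM are given only as abbreviations, which in work with this line usually stand for growth medium and differentiation medium. Serum, other medium components, time in each medium and passage are not stated. The titles number the cultures but do not say how separately they were grown. The p-values therefore cover the spread seen among these cultures, which may be technical.

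C2C12 is an established line of mouse myoblasts, the mononuclear precursors of skeletal muscle fibres. When mitogens are withdrawn, such cells leave the cell cycle, switch on the transcription factors of the MyoD and MEF2 families, fuse with each other and assemble sarcomeres. The contractile genes and the cell cycle genes that mark this change are well known. The genes treated below lie beyond them: signalling molecules, adaptors of ubiquitin ligases, chaperones, RNA-binding proteins, membrane proteins, chromatin proteins, proteases, metabolic enzymes and transcription factors.

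The identity of the cultures was checked on markers of the line: Myod1, Myf5, Des, Myog and Myh3. Myod1, which marks the myoblast lineage, read 1092, 1153 and 1038 in GM and 1400.4, 1381 and 1279.7 in DM, and was present in every culture. Myog, which drives differentiation, read 10.7, 25.4 and 8.41 in GM and 7391, 6776 and 4219 in DM, so that the groups were far apart. Des and Myh3 were also higher in DM, with log2 changes of 1.24 (SE 0.18) and 7.24 (SE 0.23). Myf5 was dim in both media and overlapped, with 32.8, 70.2 and 85.0 in GM and 28.1, 32.9 and 83.6 in DM. Its log2 change was -0.31 (SE 0.31). DM_25mM-3 stood apart on control probe sets. Its 18S ribosomal control read 19.8 on MA, against 159 and 256 in the other DM cultures and 358 to 908 in GM, and its brightest probe set reached 7683 against 17973 and 18417 in the other DM cultures. The log2 ratio of 3' to 5' control signal for Actb, which reflects RNA integrity, was 0.34 to 0.55 in GM and 0.12 to 0.18 in DM on MA. That ratio moved with the medium, and its part in the results below was not tested. Cultures of the same group correlated at 0.951 to 0.972 on MA and at 0.792 to 0.858 on MB, and the number of arrays limits the precision.

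Over both designs 12857 genes were tested, each by its brightest probe set, on log2 of the intensity plus 20. A gene was called at an adjusted p under 0.05 in limma with Benjamini-Hochberg adjustment, and all adjusted p-values below come from that fit. Of these genes 27.8% were called: 12% were higher in DM and 15.8% lower. Among single probe sets 35.3% of 13575 on MA and 6.93% of 13506 on MB were called. On MA 38.6% of 8127 genes were called, 15.7% higher and 22.9% lower. On MB 9.24% of 4730 genes were called, 5.56% higher and 3.68% lower. The values of the 3 DM cultures lay apart from those of the 3 GM cultures for 42% of genes. The median log2 change of all genes was -0.11. Because these are bulk samples, fewer cells of a type and less RNA per cell cannot be told apart. Without DM_25mM-3, 4888 probe sets were called against 5730 with it, and 346 of 355 named genes kept their call and direction.

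On MA the largest rise, with the known muscle and cell cycle markers left out of the ranking, was that of Itgb1bp2 (Entrez 26549, chrX:101449088-101466122 in GRCm38.p6), which encodes melusin, a muscle protein that binds the cytoplasmic tail of integrin beta 1. Its intensity was 10.8, 13 and 5.87 in GM and 2909.5, 2781 and 1956 in DM. Every GM value lay at the low end of the array, and every DM value lay far above it. Its change on the log2 scale was 6.41 (SE 0.17), at an adjusted p of 2.17e-12. Next came Ctrb1, the chymotrypsinogen B gene known from the exocrine pancreas, with 6.88, 22.3 and 9.99 in GM and 1749.6, 2270.1 and 1659.8 in DM and a log2 change of 5.87 (SE 0.23). Ankrd2, an ankyrin repeat protein of the sarcomeric I band, changed by 5.66 (SE 0.20). Trim54, a ubiquitin ligase that sits on microtubules and sarcomeres, changed by 3.57 (SE 0.21), and the alpha-actinin binding LIM protein Pdlim3 by 4.55 (SE 0.23). In 8 of the 15 largest rises on MA the GM mean lay under the pseudocount of 20, so that their log2 changes depend on it.

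Several of the largest rises encode secreted factors or their receptors. Fgf21, an endocrine growth factor of the liver and of stressed tissues, read 11.5, 16.2 and 30.8 in GM and 1206, 1017 and 889 in DM and rose by 4.76 (SE 0.23) on the log2 scale. Il17b, a cytokine of the interleukin 17 family, read 12.4, 11.8 and 5.75 in GM and 518, 672 and 437 in DM. C1qtnf3, a secreted relative of adiponectin, read 32.7, 28.8 and 49.3 in GM and 1794, 1094 and 1296 in DM. All 3 genes were dim in GM, and the ranking took only genes without overlap between the groups. Igf2, an insulin-like growth factor, rose by 4.40 (SE 0.22) and Fst, the follistatin gene whose product binds activins and myostatin, by 4.57 (SE 0.29). The neuregulin receptor gene Erbb3 read 87.8, 68.3 and 56.5 in GM and 1130.4, 1014 and 876 in DM, a rise of 3.50 (SE 0.15). The imprinted zinc finger gene Plagl1 rose by 5.28 (SE 0.27), from 29 ± 21 in GM to 1751 ± 221 in DM (means with SD over 3 cultures).

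On MB the ranking, again with the known markers left out, began with Prkag3 (chr1:74738922-74749471), the gamma 3 subunit of AMP-activated protein kinase, typical of fast muscle. It read 62.7, 39.4 and 24.1 in GM and 3469, 3804 and 3269 in DM, which on the log2 scale is 5.88 (SE 0.33), at an adjusted p of 4.76e-10. Fndc5, which encodes the precursor of irisin, read 30.7, 19.3 and 75.2 in GM and 2848, 3569.7 and 2291 in DM, a change of 5.65 (SE 0.34). GM_25mM-3 was the highest GM culture for Fndc5. Synpo2l, an actin-associated protein of the Z disc, read 173, 241 and 184 in GM and 9527, 9495 and 9584 in DM. Its 3 DM values lay closer together than its GM values did. Ankrd23, a stretch-responsive ankyrin repeat protein, rose by 5.68 (SE 0.27) and Pgm5, a relative of phosphoglucomutase found at adherens-type junctions, by 5.43 (SE 0.44). Tmem182, a membrane protein of muscle, read 159, 74.7 and 79 in GM and 3871, 4144 and 5036 in DM. Dhrs7c, a dehydrogenase of the sarcoplasmic reticulum, rose by 5.21 (SE 0.28), and the small membrane protein gene Smim5 by 5.03 (SE 0.38).

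**Figure D1:**
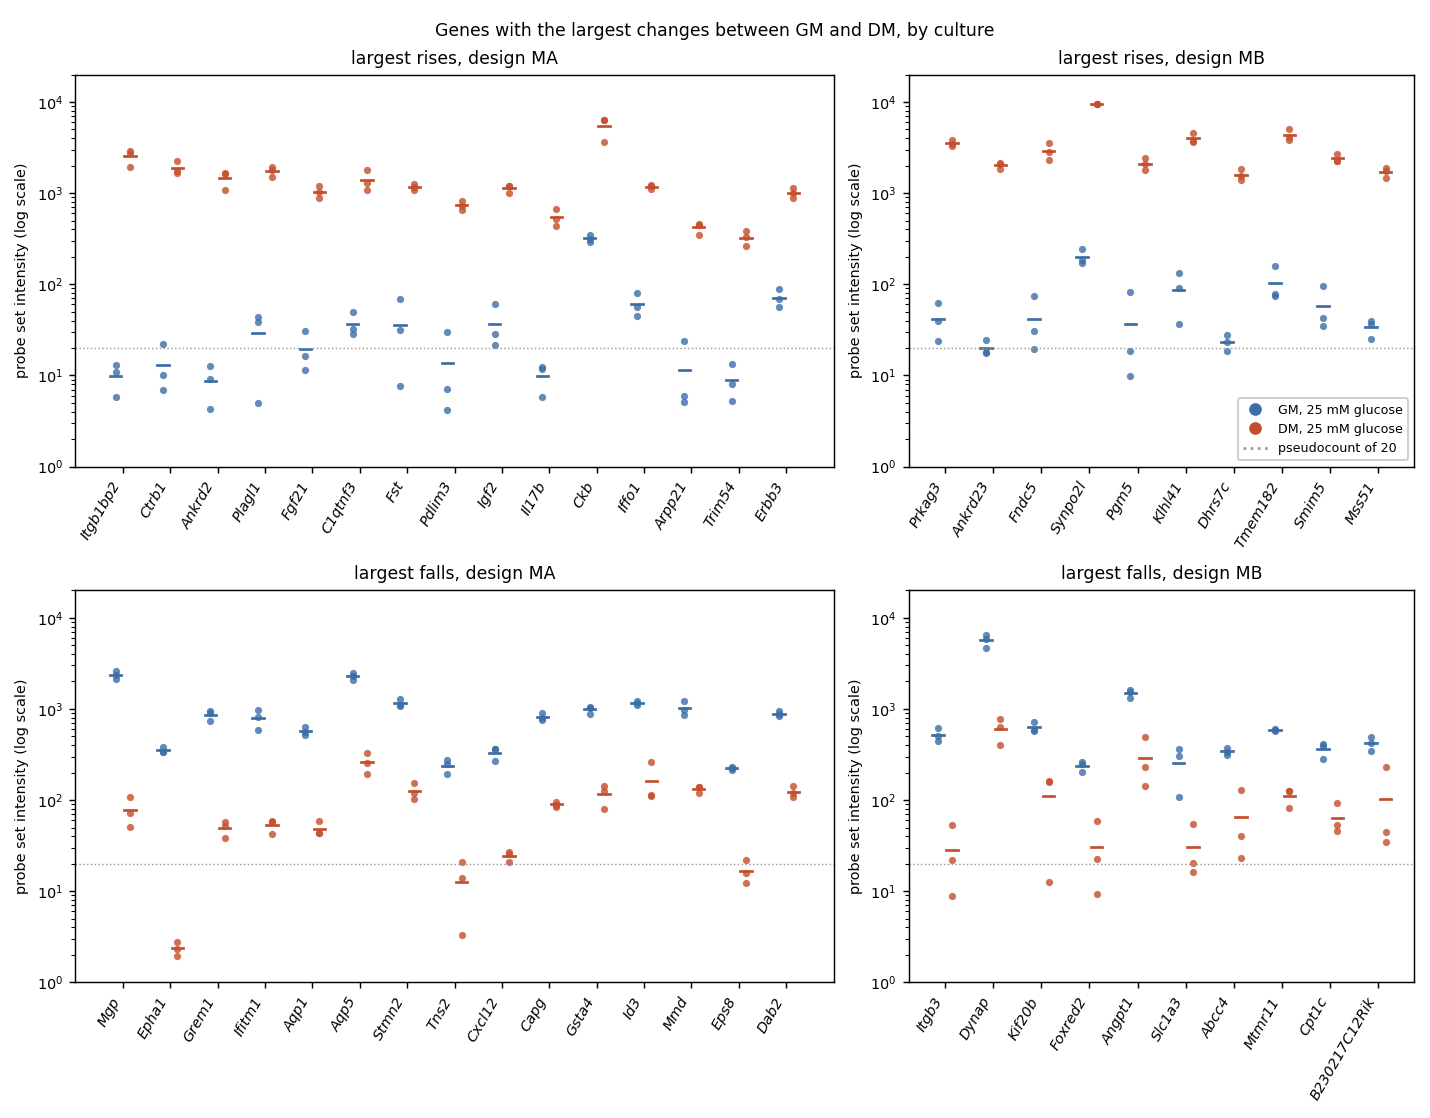
Intensity (log axis) of the ranked genes in each culture at 25 mM glucose, GM in blue and DM in red; points are the 3 cultures, short lines their mean, and the dotted line marks the pseudocount of 20. Genes were ranked only where the 3 GM values and the 3 DM values did not overlap. The falls on MB have the widest spread among DM cultures.

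Promoter sequences were set beside these changes because MyoD family and MEF2 factors are known to act in the differentiation of this line. The windows run from 250 bases before to 50 bases after a gene start in RefSeq, on build GRCm38.p6, written in the direction of transcription. Only the first window listed for a gene was read, and any other start of that gene was not searched. Capitals mark CAGCTG, the E-box form that reads the same on both strands, and the AT-rich MEF2 site on either strand. A match is a description of the letters and not a bound site. The first 5 are ranked rises picked because their windows hold a motif, and Aqp5 is a ranked fall picked because its window holds neither. Of the 18 ranked rises with a window 10 held CAGCTG or MEF2 and 8 held neither, Ankrd2, Igf2, Plagl1 and Fndc5 among them. Of the 17 ranked falls with a window 1 held either, Capg, with CAGCTG 5 bases before the start.
Klhl41 (chr2:69669870-69670169, plus strand): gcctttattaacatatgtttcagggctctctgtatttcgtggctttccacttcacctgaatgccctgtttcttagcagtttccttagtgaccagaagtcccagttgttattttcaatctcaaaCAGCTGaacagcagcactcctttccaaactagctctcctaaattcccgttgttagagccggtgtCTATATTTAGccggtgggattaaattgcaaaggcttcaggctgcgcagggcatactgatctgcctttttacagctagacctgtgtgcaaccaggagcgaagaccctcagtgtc
Trim54 (chr5:31116362-31116661, plus strand): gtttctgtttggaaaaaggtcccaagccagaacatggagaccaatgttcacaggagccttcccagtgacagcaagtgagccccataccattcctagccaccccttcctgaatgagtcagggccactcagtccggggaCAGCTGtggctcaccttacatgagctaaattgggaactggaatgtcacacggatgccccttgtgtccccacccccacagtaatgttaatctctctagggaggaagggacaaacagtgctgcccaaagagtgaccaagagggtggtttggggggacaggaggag
Pdlim3 (chr8:45885237-45885536, plus strand): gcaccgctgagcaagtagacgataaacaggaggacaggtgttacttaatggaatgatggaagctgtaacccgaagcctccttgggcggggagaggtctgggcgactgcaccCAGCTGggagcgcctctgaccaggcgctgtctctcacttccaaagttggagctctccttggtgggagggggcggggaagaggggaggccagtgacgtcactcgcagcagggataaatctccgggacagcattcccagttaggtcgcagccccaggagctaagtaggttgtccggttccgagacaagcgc
Synpo2l (chr14:20668305-20668604, minus strand): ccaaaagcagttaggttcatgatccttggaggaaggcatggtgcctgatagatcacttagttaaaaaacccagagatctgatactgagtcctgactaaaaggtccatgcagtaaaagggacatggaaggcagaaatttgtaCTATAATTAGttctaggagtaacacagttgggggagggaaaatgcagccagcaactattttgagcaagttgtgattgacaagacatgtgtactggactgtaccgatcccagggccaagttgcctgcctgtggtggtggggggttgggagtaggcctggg
Ckb (chr12:111672289-111672588, minus strand): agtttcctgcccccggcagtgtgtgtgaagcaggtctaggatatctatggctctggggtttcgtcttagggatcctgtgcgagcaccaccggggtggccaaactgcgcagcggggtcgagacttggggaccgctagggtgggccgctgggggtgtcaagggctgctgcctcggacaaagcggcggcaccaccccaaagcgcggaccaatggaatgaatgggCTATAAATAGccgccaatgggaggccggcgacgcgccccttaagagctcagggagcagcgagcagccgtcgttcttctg
Aqp5 (chr15:99590778-99591077, plus strand): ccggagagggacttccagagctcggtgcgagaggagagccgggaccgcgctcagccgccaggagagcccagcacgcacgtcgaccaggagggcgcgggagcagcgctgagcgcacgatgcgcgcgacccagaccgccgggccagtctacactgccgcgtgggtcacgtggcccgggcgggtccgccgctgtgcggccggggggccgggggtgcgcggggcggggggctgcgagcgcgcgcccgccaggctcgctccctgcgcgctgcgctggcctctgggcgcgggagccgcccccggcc

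In the window of Klhl41 a CAGCTG begins 127 bases before the start and a MEF2 match 63 bases before it. Trim54 and Pdlim3 have CAGCTG at 113 and 139 bases before the start and no MEF2 match. Synpo2l and Ckb have a MEF2 match at 109 and 29 bases before the start and no CAGCTG. A window was found for 10304 of the 12857 genes tested. It was found for 189 of the 249 genes called and at least 4-fold higher in DM, and for 60 of the 81 called and at least 4-fold lower. CAGCTG was present in 32.3% of the windows of the genes that rose, 10% of those of the genes that fell and 15.4% of those of all genes tested. It was in 16.1% of all 27025 windows read, the first listed for each gene. With the known muscle and cell cycle markers left out, 28.7% of 143 windows of genes that rose held it. The MEF2 motif was in 8.47% of the windows of genes that rose (5.59% without the known markers), in 0 of the 60 of genes that fell, in 1.3% of those of all genes tested and in 1.89% of all windows. CArG, the serum response factor site, was in 4.23% of windows of genes that rose, 1.27% of those of genes tested and 1.57% of all. CACCTG, another E-box form, was in 21.2%, 17.9% and 20% of windows of these sets. CATTCC, the TEAD site, was in 19%, 12.1% and 14.6%, and CCAAT in 40.2%, 38.1% and 37.9%. The E2F forms TTCCCGC and TTGGCGC were in 5% and 1.67% of the windows of genes that fell. They were in 7.95% and 4.2% of those of all genes tested and in 4.66% and 2.54% of all windows. Each motif was sought on both strands, and any E-box, CANNTG, which contains CAGCTG and CACCTG, was in 74.1% of windows of genes that rose, 63.8% of those of genes tested and 72.1% of all. The genes were chosen by their change in this comparison, so these shares carry no test.

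**Figure D2:**
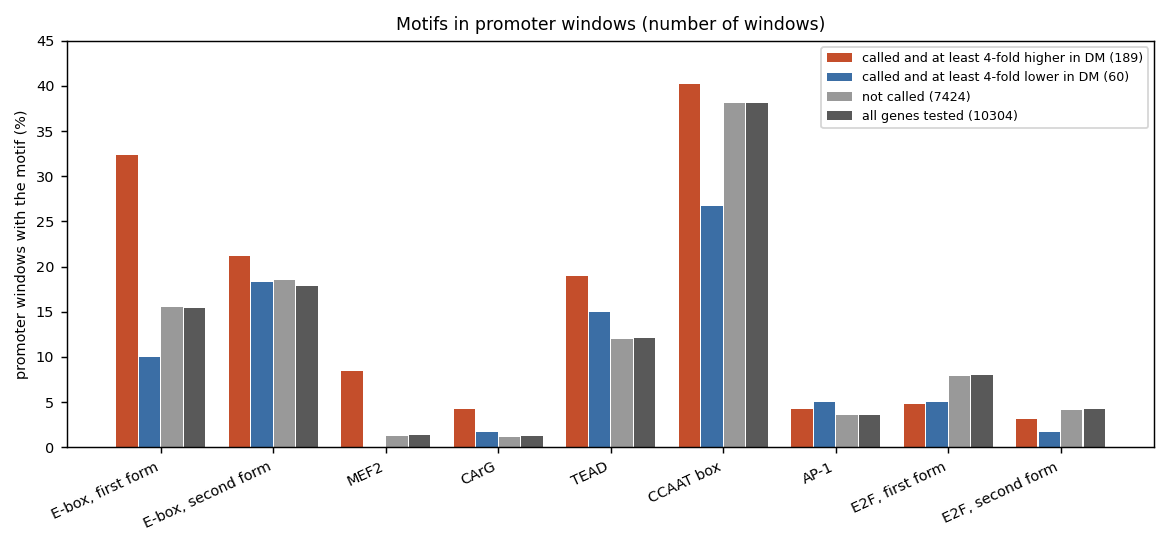
Share of promoter windows (%) that hold each motif among genes called and at least 4-fold higher in DM (red), at least 4-fold lower (blue), not called (light grey) and all genes tested (dark grey). The first E-box form, CAGCTG, stands at 32.3% in the genes that rose and 10% in those that fell, and MEF2 at 8.47% and 0.

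The genes were then read by function, in groups whose sizes are the members tested. Where a group lies mostly on MA, the background of that design, 15.7% higher and 22.9% lower, is the closer one. A group whose shares lie near these is not set apart by its count. Among groups that rose more often than the background, cytosolic chaperones had 24 of 62 members higher and 5 lower, which is 38.7% higher. Histones and HMG proteins, at the other end, had 1 of 25 higher and 19 lower.

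**Figure D3:**
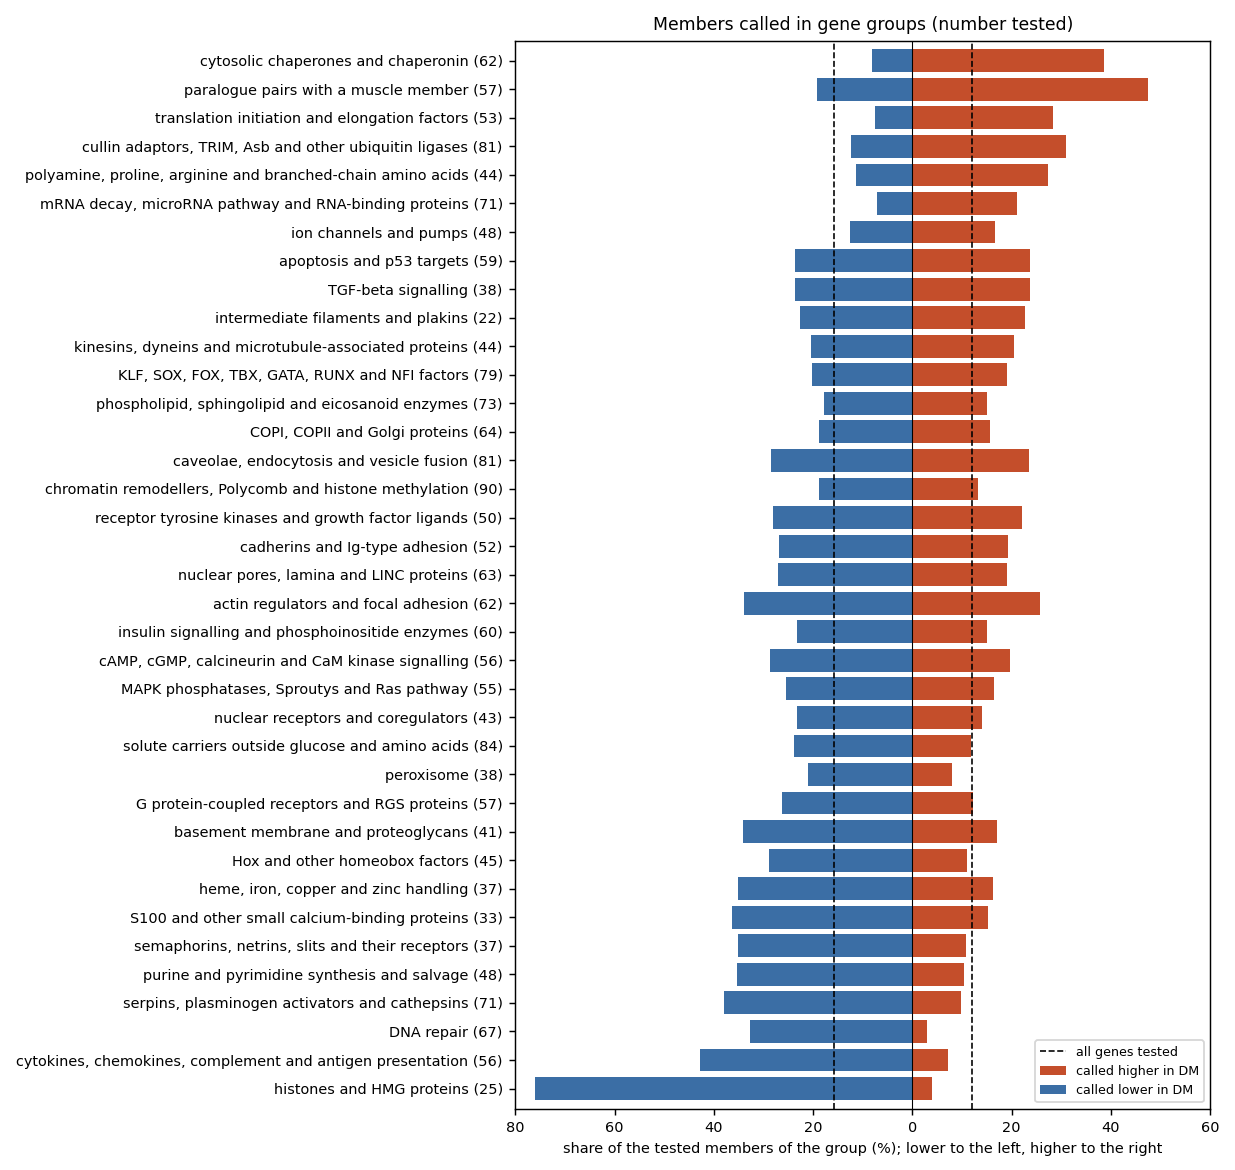
Share of the tested members of the gene groups reported (%) called higher in DM (red, to the right) and lower in DM (blue, to the left), with the number tested in brackets and dashed lines at 12% higher and 15.8% lower, the shares of all genes. Most groups lie mostly on MA, where the shares of all genes were 15.7% higher and 22.9% lower. Cytosolic chaperones reach 38.7% higher and histones and HMG proteins 76% lower.

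The largest rises among chaperones were in proteins that serve the sarcomere. Unc45b, which folds the myosin head and also stood in the known marker list, read 6.52, 11 and 34.2 in GM and 3153, 2996 and 2956 in DM, a log2 change of 6.43 (SE 0.28). Hspb3, a small heat shock protein of muscle, rose by 3.02 (SE 0.24), and Cryab, alpha B crystallin, which protects desmin filaments, from 461 ± 62.2 in GM to 2510.4 ± 500.4 in DM (means with SD over 3 cultures). The stress-inducible Hsp70 gene Hspa1b moved the other way, with 259.7, 240.4 and 189.6 in GM and 64.8, 82.3 and 141 in DM and a change of -1.15 (SE 0.29), as did Fkbp5, a co-chaperone of steroid receptors, at -0.83 (SE 0.19) and the small heat shock gene Hspb6 at -0.92 (SE 0.18). The median log2 change of the group was 0.23 against -0.11 for all genes. On MA alone 38.6% of members were higher and 7.02% lower.

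Ubiquitin ligases and their substrate adaptors had 25 of 81 members higher and 10 lower (6 without DM_25mM-1 or with median centring), with a median of 0.13. Klhl41 and Klhl40 are kelch adaptors of cullin 3 that stabilise thin filament proteins. Klhl41 read 91.9, 132 and 37 in GM and 4602, 3619 and 3741 in DM, a change of 5.33 (SE 0.29), and Klhl40 rose by 4.28 (SE 0.24). Asb2, an adaptor that directs filamins to degradation, read 77.4, 93 and 144 in GM and 1822, 1826 and 1415 in DM, and Trim63, the muscle ring finger ligase MuRF1, rose by 3.99 (SE 0.38). Fbxo32, the other ligase of muscle atrophy, fell instead: it read 138, 134 and 180.3 in GM and 36.2, 72.1 and 80.6 in DM, a change of -1.08 (SE 0.21). Trim63 and Fbxo32 are often followed together in muscle wasting, and here they lay on opposite sides.

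RNA-binding proteins of mRNA decay and splicing had 15 of 71 members higher and 5 lower (3 with median centring, 8 with quantile normalization). Rbm24, a splicing regulator of striated muscle, read 267, 399 and 439.9 in GM and 8127, 8632 and 7789 in DM, a log2 change of 4.43 (SE 0.24). Its relative Rbm38 rose by 2.12 (SE 0.19). Among the proteins that destabilise AU-rich mRNAs, Zfp36l1 rose, with 144, 119.5 and 129.9 in GM and 701, 478 and 658 in DM, whereas Zfp36l2 fell, with 779.6, 957 and 977 in GM and 220.5, 254 and 328 in DM. Their changes were 2.05 (SE 0.19) and -1.70 (SE 0.20). Of the microRNA pathway, the Argonaute gene Ago1 changed by -0.75 (SE 0.17) and its partner Tnrc6a by -0.76 (SE 0.11). The Ago1 call was lost with median centring of the arrays (-0.65) and without the intensity trend in limma (-0.75).

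Translation factors had 15 of 53 members higher and 4 lower, with a median of 0.11. Eif5, which triggers GTP hydrolysis at the start codon, changed by 1.54 (SE 0.23), Eef1e1, part of the tRNA synthetase complex, by 1.13 (SE 0.15), Eif2b3, of the exchange factor for eIF2, by 1.03 (SE 0.20), and the helicase gene Eif4a2 by 1.01 (SE 0.13). Eif4b, the cofactor of that helicase, moved against them, with 1960.1, 1742 and 1857 in GM and 899, 945 and 879 in DM and a change of -1.01 (SE 0.11). Eif2ak2, the double-stranded RNA kinase PKR, fell by 0.83 on the log2 scale.

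Enzymes of arginine, proline, polyamine and branched-chain amino acid metabolism, with creatine synthesis, had 12 of 44 members higher and 5 lower. Both steps of creatine synthesis rose. Gatm, which makes guanidinoacetate, read 87.8, 99 and 63.5 in GM and 456, 450.1 and 763 in DM, and Gamt, which methylates it to creatine, read 159, 237 and 191 in GM and 969.7, 868 and 623 in DM. Their changes were 2.45 (SE 0.24) and 1.96 (SE 0.18). Ckb, the brain-type creatine kinase, read 292, 314 and 350.4 in GM and 6344, 6370.2 and 3617 in DM, with DM_25mM-3 well below the other DM cultures, a change of 3.97 (SE 0.20). Gpt2, the mitochondrial alanine aminotransferase, had tight values, 147, 152 and 148 in GM and 926, 877 and 989 in DM, and a change of 2.49 (SE 0.11). Glutamate enzymes fell: Glul, glutamine synthetase, by 1.09 and Glud1, glutamate dehydrogenase, by 0.89. Bcat1, the cytosolic branched-chain aminotransferase, read 455, 306 and 308 in GM and 55.6, 76.6 and 86.1 in DM, a change of -2.01 (SE 0.20).

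Nucleotide enzymes had 5 of 48 members higher and 17 lower, and the largest rises were in adenylate handling. Ampd1 and Adssl1 are the muscle forms of AMP deaminase and adenylosuccinate synthase, which are among the enzymes of the purine nucleotide cycle, and Ak1 is adenylate kinase. Ampd1 read 32.8, 38.8 and 35.8 in GM and 260.3, 406 and 273 in DM, Adssl1 rose by 2.22 (SE 0.19) and Ak1 by 1.37 (SE 0.12). Ctps, which makes CTP, rose by 0.90 (SE 0.20). The salvage enzyme Pnp, purine nucleoside phosphorylase, read 587, 575 and 615 in GM and 111, 120.5 and 147 in DM, a change of -2.08 (SE 0.17), and the cytidine deaminase Cda changed by -1.26 (SE 0.20). On MA 40% of the group's members were lower, against 22.9% of all MA genes.

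Membrane proteins of calcium and ion handling changed in both directions. Of 48 channels and pumps outside the known muscle markers 8 rose and 6 fell. Tmem38a, a cation channel of the sarcoplasmic reticulum, read 40.3, 59.5 and 58 in GM and 869.7, 724 and 547 in DM, a change of 3.32 (SE 0.22). Orai1, the pore of store-operated calcium entry, rose by 1.94 (SE 0.12), the ATP-gated channel P2rx5 by 2.35 (SE 0.29) and the calcium channel subunit Cacnb1 by 1.81 (SE 0.20). The calcium-activated potassium channel of proliferating cells, Kcnn4, read 295, 278 and 274 in GM and 40.8, 51.2 and 63.1 in DM, a change of -2.09 (SE 0.16), and the chloride channel protein Clic1 changed by -1.50 (SE 0.13).

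Among 81 proteins of caveolae, endocytosis and vesicle fusion 19 rose and 23 fell. Bin1 and Cav3, which shape the transverse tubules of muscle, both rose: Bin1 read 434, 475 and 421 in GM and 2569, 2492 and 1924 in DM and Cav3 8.81, 9.04 and 7.55 in GM and 531, 512 and 448 in DM. Pacsin3, a membrane-bending protein, rose by 2.24 (SE 0.17), and the sorting nexin Snx7 by 2.10 (SE 0.19). Caveola proteins known from other cells as well fell, with Cav1 at -0.95 (SE 0.19), Cavin3 at -1.13 (SE 0.19) and the ATPase Ehd2 at -1.23 (SE 0.13). A pair of aquaporins, which pass water through membranes, was among the largest falls: Aqp1 read 641, 522 and 556 in GM and 43.3, 58.2 and 43.7 in DM and Aqp5 2499, 2303 and 2085 in GM and 254, 328 and 194 in DM, changes of -3.12 (SE 0.17) and -3.08 (SE 0.20). Carriers of small solutes had 10 of 84 members higher (5 without DM_25mM-1) and 20 lower. On MA 14.9% of the carriers rose and 25.4% fell, near the 15.7% and 22.9% of all MA genes. The chloride cotransporter Slc12a2 read 189, 194 and 133 in GM and 1245, 1203 and 1234 in DM, a change of 2.71 (SE 0.14). The nucleoside transporter Slc29a1 rose by 1.93 (SE 0.16), and the lactate transporter Slc16a1 fell by 1.33.

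Of the 60 genes of insulin signalling and phosphoinositides 9 rose and 14 fell. On MA 13% rose and 26.1% fell, near the 15.7% and 22.9% of all MA genes. The phosphatases that remove phosphates from phosphoinositides led the rises. Inpp4b read 79.1, 24.3 and 11.9 in GM and 1141, 925 and 1495 in DM, a change of 4.51 (SE 0.44), and Inppl1, the SHIP2 phosphatase, 376, 330.2 and 370.2 in GM and 1763, 1883 and 1691 in DM, a change of 2.25 (SE 0.12). Akt2, the Akt kinase of insulin action, rose by 1.45 (SE 0.18). The phospholipases Plcd3 and Plcb3 changed by -1.81 (SE 0.33) and -1.71 (SE 0.36) and the inositol trisphosphate receptor Itpr3 by -1.28 (SE 0.14), while Plcb4 rose by 1.51 (SE 0.27). In cAMP and calcium signalling 11 of 56 rose and 16 fell. Both inhibitors of protein kinase A in the list rose, Pkia by 2.44 (SE 0.25) and Pkig by 2.05 (SE 0.20), as did the phosphodiesterase anchor Pde4dip by 2.60 (SE 0.13). The adenylate cyclase Adcy6 changed by -1.56 (SE 0.18), the kinase anchor Akap12 by -1.86 (SE 0.18) and the calcineurin inhibitor Rcan2 by -2.24 (SE 0.29).

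Among Ras and MAP kinase regulators 9 of 55 rose and 14 fell. On MA 18.6% rose and 30.2% fell, against 15.7% and 22.9% of all MA genes. Errfi1, the feedback inhibitor of the EGF receptor, read 529, 556 and 625 in GM and 119, 94.1 and 121 in DM, a change of -2.17 (SE 0.17). Dusp4 and Ets2, both induced by ERK signalling, changed by -1.42 (SE 0.27) and -1.72 (SE 0.14), whereas the phosphatase Dusp3 rose by 2.17 (SE 0.23) and the atypical phosphatase Dusp27 by 2.46 (SE 0.32). G protein-coupled receptors and RGS proteins had 7 of 57 higher and 15 lower. The serotonin receptor Htr2b read 9.99, 10.3 and 36.4 in GM and 198, 183 and 198 in DM, a change of 2.52 (SE 0.27), and the prostaglandin receptor Ptger4 changed by -1.48 (SE 0.27).

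In the TGF-beta family the activin antagonists and the activin subunits moved apart. Of 38 members 9 rose and 9 fell, 5 without GM_25mM-3. The activin antagonists Fst and Fstl3 rose: Fst read 31.7, 68.1 and 7.65 in GM and 1172, 1075 and 1270.2 in DM and Fstl3 62.3, 84.4 and 47.2 in GM and 335, 288 and 297 in DM. Inhbb, an activin subunit, read 189, 196 and 199.96 in GM and 75.8, 81.3 and 85.6 in DM, a change of -1.09 (SE 0.14). The other subunit named here, Inhba, changed by -1.43 (SE 0.40), and its call was lost without DM_25mM-3 (-1.07). Tgfb3 rose by 1.43 (SE 0.18), and the latency protein Ltbp2 fell by 1.91. Grem1, a BMP antagonist, was among the largest falls, with 959, 895 and 736 in GM and 51.9, 56.9 and 38.5 in DM. The 3 repulsive guidance molecules, which act as BMP co-receptors, all rose on MB, a grouping made after their values were seen. Hjv, hemojuvelin, read 206, 256 and 131 in GM and 5711, 5104 and 4868 in DM, a change of 4.63 (SE 0.33), Rgmb rose by 2.07 (SE 0.24) and Rgma by 1.65 (SE 0.22).

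Mgp (Entrez 17313, chr6:136872435-136875823), the matrix Gla protein that inhibits calcification, fell furthest. It read 2349.5, 2621 and 2109.5 in GM and 51, 107 and 73 in DM, which on the log2 scale is -4.65 (SE 0.18), at an adjusted p of 1.72e-10. Epha1 (Entrez 13835, chr6:42358487-42373314), an ephrin receptor, read 339.8, 333 and 379 in GM and 1.94, 2.79 and 2.33 in DM, so that its DM values lay at the low end of the array. The interferon-induced membrane protein Ifitm1 read 582, 822 and 961 in GM and 59.5, 42.6 and 56.8 in DM, and Capg, which caps actin filaments, 751, 898 and 796 in GM and 83.6, 96.2 and 88.8 in DM. Stmn2, a microtubule-destabilising protein best known from neurons, read 1074, 1287 and 1101 in GM and 119.6, 154 and 102 in DM, a change of -3.03 (SE 0.18), and its relative Stmn1 changed by -1.62 (SE 0.17). The endocytic adaptor Dab2 changed by -2.67 (SE 0.16), the tensin Tns2 by -3.01 (SE 0.21), the actin regulator Eps8 by -2.75 (SE 0.19), the glutathione transferase Gsta4 by -2.91 (SE 0.18) and the membrane protein Mmd by -2.75 (SE 0.18). On MB the integrin subunit Itgb3 read 500.3, 442 and 614 in GM and 53.6, 8.91 and 22.2 in DM, a change of -3.58 (SE 0.40) with adjusted p = 5.23e-06. Dynap, a dynactin-associated membrane protein, read 6494, 4664 and 5894 in GM and 404, 637 and 774 in DM. Angpt1, the ligand of the Tie2 receptor, read 1528, 1332 and 1604 in GM and 230.3, 143 and 488 in DM, and DM_25mM-3 was the highest DM culture for both genes. The call of Slc1a3, a glutamate transporter at -2.39 (SE 0.57), was lost without GM_25mM-2 (-2.09), GM_25mM-3 (-2.21) or DM_25mM-2 (-2.19). B230217C12Rik, at -2.17 (SE 0.53), lost its call without DM_25mM-1 (-1.76), DM_25mM-2 (-1.89) or GM_25mM-1 (-2.05).

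Of the histones, histone chaperones and HMG proteins most were lower in DM, with 19 of 25 lower, 1 higher and a median of -0.89. Hmga2, an architectural DNA-binding protein of growing mesenchymal cells, read 519.8, 364 and 646 in GM and 57.6, 79.8 and 61.8 in DM, a change of -2.59 (SE 0.21). The variant histone H2ax read 453, 426 and 406 in GM and 168, 217 and 174 in DM, and the histone chaperone Asf1b changed by -1.11 (SE 0.15). The member that rose was the other form of that chaperone, Asf1a, at 0.40 (SE 0.14). Its call was lost when any 1 of the 6 cultures was left out (0.36 to 0.44). DNA repair genes had 22 of 67 lower and 2 higher (1 without DM_25mM-1), with a median of -0.56. Lig1, the ligase that joins Okazaki fragments, read 491, 402 and 376 in GM and 132, 168 and 94.1 in DM, a change of -1.57 (SE 0.17). Brca2, of homologous recombination, changed by -1.09 (SE 0.22) and Xrcc5, the Ku80 subunit of end joining, by -1.07 (SE 0.21). Parp3 was higher, at 1.38 (SE 0.32). Both groups hold genes whose expression follows S phase, and the part of the cell cycle in these changes was not tested.

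Nuclear envelope genes changed in both directions. Of 63 members 12 rose and 17 fell, 10 without GM_25mM-1 and 11 with median centring. On MA 19.3% rose and 29.8% fell, against 15.7% and 22.9% of all MA genes. Syne1, the nesprin that anchors muscle nuclei, read 119, 39.97 and 119 in GM and 548, 534 and 396 in DM, a change of 2.27 (SE 0.28), while its inner membrane partner Sun2 read 1017, 1141 and 1275 in GM and 568, 499 and 423 in DM, a change of -1.18 (SE 0.15). The envelope protein nurim, Nrm, changed by -1.17 (SE 0.14). Of the chromatin modifiers 12 of 90 were higher and 17 lower, and 6 were higher without DM_25mM-2 or without GM_25mM-2. On MA 7.35% of them were higher and 23.5% lower, the latter near the 22.9% of all MA genes. The methylcytosine dioxygenase Tet2 rose by 1.15 (SE 0.26), and Cbx5, the heterochromatin protein HP1 alpha, by 1.14 (SE 0.12). The Polycomb methyltransferase Ezh1 changed by -1.18 (SE 0.20).

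Cytokines, chemokines, complement and antigen presentation had 24 of 56 lower and 4 higher, with a median of -0.52. Il17b, the cytokine gene among the largest rises on MA, is not a member of this list and is not counted here. Cxcl12, the chemokine that guides CXCR4-bearing cells, read 269.8, 361 and 364 in GM and 27, 20.8 and 25.9 in DM, a change of -2.97 (SE 0.18). Csf1, the macrophage growth factor, read 1008, 784 and 936 in GM and 264, 219 and 262 in DM, a change of -1.79 (SE 0.13). The class I antigen-presenting gene H2-D1 changed by -1.40 (SE 0.20). Il6st, the shared receptor of interleukin 6 and its relatives, was among the few that rose, with 159, 164 and 193 in GM and 365, 375 and 375 in DM and a change of 1.03 (SE 0.12), and Il17ra, a receptor for the interleukin 17 family, changed by 0.79 (SE 0.18). Without DM_25mM-3, 19 members were lower and 3 higher, and 2 were higher without DM_25mM-2 or without GM_25mM-3.

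Proteases and their inhibitors had 27 of 71 members lower and 7 higher, with a median of -0.38. Anpep, aminopeptidase N, read 115, 113 and 156 in GM and 10.6, 21.6 and 5.85 in DM, the urokinase receptor Plaur 310.3, 269 and 288 in GM and 77.4, 65.7 and 61.8 in DM and the metalloprotease inhibitor Timp1 1252, 1154 and 1019.6 in GM and 349.6, 377 and 242 in DM. Their changes were -2.20 (SE 0.28), -1.81 (SE 0.17) and -1.78 (SE 0.20). Secreted proteins of the ADAMTS family led the rises: Adamtsl2, which binds latent TGF-beta complexes, read 249, 100.1 and 203 in GM and 1635, 1593 and 1545 in DM, Adamts5, which cleaves aggrecan and versican, changed by 2.79 (SE 0.31) and Adamts1 by 2.08 (SE 0.22). Capn6, a calpain without protease activity, rose by 2.16 (SE 0.13), and Capn5 changed by -1.52 (SE 0.26).

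Small calcium-binding proteins had 12 of 33 lower and 5 higher (3 without DM_25mM-2 or GM_25mM-2). The 7 S100 genes tested all lie on chromosome 3, and 4 of them fell and 1 rose, a count made after their values were seen. The other fall was S100a13 at -1.15, and the rise was S100a16 at 0.37. S100a4 (chr3:90603770-90606045), linked to cell motility, read 8637, 10517 and 8544 in GM and 2374, 2706 and 2096 in DM. S100a6 (chr3:90612894-90614414) read 2671, 3441 and 2533 in GM and 808, 1004 and 846 in DM and S100a10 (chr3:93555117-93564645), the partner of annexin A2, 4482, 4923 and 4418 in GM and 1229.9, 1482 and 1266 in DM. The changes were -1.94 (SE 0.24), -1.67 (SE 0.19) and -1.78 (SE 0.17). Aif1l, an actin-binding EF-hand protein, rose instead, with 180.4, 233 and 172 in GM and 1516, 1512 and 1323 in DM and a change of 2.78 (SE 0.15). Pvalb, the parvalbumin of fast muscle, was dim, with 38.4, 9.27 and 53.8 in GM and 109.8, 152 and 101 in DM.

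Guidance molecules were more often lower than higher on MA. The semaphorin, netrin and slit group had 13 of 37 lower and 4 higher. On MA 12 of its 24 members, 50%, were lower and 1 was higher, against 22.9% and 15.7% of all MA genes. Most of the higher members thus lie on MB. Unc5b, a netrin receptor, read 725, 682 and 941 in GM and 206, 205 and 101 in DM, a change of -2.12 (SE 0.25), and the neuropilins Nrp1 and Nrp2, receptors for semaphorins and VEGF, changed by -1.55 (SE 0.19) and -1.65 (SE 0.15). Of the cadherins and other adhesion proteins 10 of 52 rose and 14 fell. The tetraspanins did not move together: Tspan33 rose by 2.28 (SE 0.24), whereas Tspan4 read 625, 528 and 527 in GM and 112, 117 and 76.4 in DM, a change of -2.27 (SE 0.19), and Cd9 changed by -1.70 (SE 0.13). Jam3, a junctional adhesion molecule, rose by 1.80 (SE 0.13). In Cd82, another tetraspanin, the brightest probe set changed by 1.35 (SE 0.27), and a second was called lower, at -0.58.

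The basement membrane group had 14 of 41 lower and 7 higher (4 without GM_25mM-1), with a median of -0.40. The paired collagen IV genes, which lie head to head on chromosome 8, rose by similar amounts. Col4a1 (chr8:11198423-11312889) read 434, 530.3 and 441 in GM and 968, 1021 and 1087 in DM and Col4a2 (chr8:11312805-11449287) 333, 350.3 and 339.6 in GM and 815, 789 and 727 in DM. Lama2, the laminin chain of muscle, rose by 1.02 (SE 0.18). Nid1, the linker protein nidogen, read 652, 689 and 549 in GM and 194, 160.01 and 221 in DM, a change of -1.62 (SE 0.19), and Ugdh, which supplies UDP-glucuronate for glycosaminoglycans, changed by -1.62 (SE 0.17).

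Cytoskeletal genes changed without a common direction. Of 62 actin and focal adhesion genes 16 rose and 21 fell. On MA 25.9% rose and 34.5% fell. Ablim3, a LIM protein of actin filaments, read 14.3, 24.8 and 4.21 in GM and 858, 951 and 1064 in DM, a change of 4.87 (SE 0.34). Enah, which promotes filament elongation, rose by 2.46 (SE 0.21). Lasp1 changed by -1.76 (SE 0.14) and the bundling protein Fscn1 by -1.53 (SE 0.23). Pdlim5 was inconsistent between probe sets: its brightest probe set fell by 1.69 and another was called higher, at 2.66. Among microtubule proteins 9 of 44 rose and 9 fell. Dclk1, a doublecortin-like kinase, read 107, 147 and 127 in GM and 763, 679.6 and 1067 in DM, a change of 2.52 (SE 0.23), and the end-binding protein Mapre2 changed by -1.44 (SE 0.20). Of 22 intermediate filament and plakin genes 5 rose and 5 fell, with Sync, syncoilin of muscle, at 1.31 (SE 0.17), the crosslinker Macf1 at 1.29 (SE 0.12), the keratin Krt14 at -1.69 (SE 0.24) and vimentin, Vim, at -1.10 (SE 0.26).

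Metal handling had 13 of 37 members lower and 6 higher. Cp, the copper oxidase ceruloplasmin, read 354, 321 and 403 in GM and 56.4, 36.1 and 85.7 in DM, a change of -2.30 (SE 0.22). The metalloreductases Steap1 and Steap2 changed by -1.77 (SE 0.13) and -1.58 (SE 0.25), and the biliverdin reductase Blvrb by -1.50 (SE 0.27). Alas1, the first enzyme of heme synthesis, rose by 0.81 (SE 0.17), and the iron-sulphur scaffold Iscu by 0.61 (SE 0.13). Phospholipid, sphingolipid and eicosanoid enzymes had 11 of 73 higher and 13 lower. Their shares on MA were 14.8% and 21.3%, near the 15.7% and 22.9% of all MA genes. Ptgr1, which inactivates leukotriene B4 and prostaglandins, read 1245, 1151 and 1151 in GM and 199, 236 and 226 in DM, a change of -2.32 (SE 0.11). Ugcg, which makes glucosylceramide, changed by -2.09 (SE 0.13). Plaat3, a phospholipase of organelle membranes, read 150.3, 176 and 149 in GM and 1103, 1265 and 1035 in DM, a change of 2.69 (SE 0.12), and Chpt1, of phosphatidylcholine synthesis, rose by 1.68 (SE 0.17). Peroxisomal genes had 8 of 38 lower and 3 higher, among them Idh1 at -1.08 (SE 0.24) and the chaperone of peroxisomal membrane proteins Pex19 at 1.12 (SE 0.19). On MA 24.2% of the peroxisomal genes were lower and 9.09% higher. Of 64 Golgi and coat proteins 10 rose (6 without DM_25mM-1) and 12 fell, and the largest rise was that of the ganglioside enzyme St3gal5 at 1.83 (SE 0.21). On MA 16.9% of the Golgi and coat proteins rose and 20.3% fell, near the shares of all MA genes.

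Transcription factors known from limb mesenchyme led the falls among homeobox genes. Homeobox factors had 13 of 45 lower and 5 higher, with a median of -0.38. Prrx2 and Prrx1, factors of limb mesenchyme, read 419, 478 and 507 in GM and 94.6, 116 and 96.3 in DM and 332, 468 and 423 in GM and 97.7, 89.1 and 149 in DM, changes of -1.996 (SE 0.13) and -1.71 (SE 0.21). Meis2, a partner of Hox proteins, changed by -1.66 (SE 0.22), whereas Irx3 rose by 1.60 (SE 0.13). In the KLF, SOX and FOX families 15 of 79 rose and 16 fell. Twist2, an inhibitor of MyoD, changed by -1.61 (SE 0.18) and Snai2 by -1.53 (SE 0.34). Sox8 and Sox11 rose by 2.81 (SE 0.46) and 2.005 (SE 0.36), Tead4, the factor behind the TEAD site, by 1.94 (SE 0.34), and Bhlhe40 by 1.72 (SE 0.19). Id3, which blocks MyoD family dimers, read 1158, 1220.1 and 1117 in GM and 112, 260.4 and 112 in DM, with DM_25mM-2 above the other DM cultures.

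Nuclear receptors and hormone enzymes had 6 of 43 higher and 10 lower. The lower count was 5 without DM_25mM-1, 6 without DM_25mM-3 or any 1 of the GM cultures, 5 with median centring and 6 with quantile normalization. On MA 11.8% of the group rose and 26.5% fell, against 15.7% and 22.9% of all MA genes. The largest falls were in retinoid genes: Dhrs3, which reduces retinal, read 177, 241 and 196 in GM and 8.68, 30.4 and 22.3 in DM, and the receptor Rarg 714, 557 and 784 in GM and 122, 193 and 147 in DM. Their changes were -2.50 (SE 0.29) and -2.02 (SE 0.18). In thyroid hormone handling the enzyme and the receptor moved apart. Dio2, which makes the active hormone, read 33.3, 2.66 and 44.5 in GM and 288, 262 and 283 in DM, a change of 2.80 (SE 0.32), and the receptor Thra changed by -1.03 (SE 0.25). The coactivators Ncoa1 and Ncoa2 rose by 1.87 (SE 0.19) and 2.23 (SE 0.32), and the oestrogen receptor Esr1 by 2.34 (SE 0.40). Of 59 genes of apoptosis and p53 targets 14 rose and 14 fell. The lower count was 9 without DM_25mM-2, without DM_25mM-3 or with median centring, and 7 without GM_25mM-3. The 4 largest falls were those of caspases, the proteases of cell death, with Casp6 at -1.26 (SE 0.19), Casp8 at -1.13 (SE 0.19), Casp2 at -1.07 (SE 0.16) and Casp9 at -0.86 (SE 0.17). The p53 targets Pmaip1, which encodes the BH3 protein Noxa, and Ccng1 rose by 2.35 (SE 0.35) and 1.33 (SE 0.20), and Gadd45b by 1.54 (SE 0.17).

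Paired relatives, of which the second is the form better known from muscle or from another special tissue, were set side by side in 24 pairs. The second member was called higher and the first called lower in 8 pairs. In 7 more the second was called higher and the first was not called. In 4 pairs neither was called. Ampd1 is paired with both Ampd2 and Ampd3, and Csrp3 with both Csrp1 and Csrp2, so the pairs are not all separate. The list they come from was chosen for such pairs, so the direction is no independent evidence. Cap1 and Cap2 bind actin monomers. Cap1 read 1234, 952 and 993 in GM and 457, 525 and 516 in DM, while Cap2 read 32.9, 62.6 and 69.7 in GM and 731, 685 and 659 in DM. Adss and Adssl1 catalyse the same step of AMP synthesis, and Adss read 552, 527 and 641 in GM and 206, 216 and 310.2 in DM while Adssl1 read 54.6, 99.5 and 116 in GM and 478, 507 and 453 in DM. Csrp2 and Csrp1 changed by -1.13 (SE 0.15) and -0.57 (SE 0.13) and the muscle LIM protein Csrp3 by 3.58 (SE 0.20). The lysine methyltransferase Smyd1, needed for sarcomere assembly, rose by 3.10 (SE 0.16), and Smyd2 changed by -0.67 (SE 0.13). Ampd2 changed by -0.89 (SE 0.16) and Ampd1 by 2.55 (SE 0.52), and Capn2 by -0.62 (SE 0.12) and Capn3 by 0.97 (SE 0.19). Cofilin 2, Cfl2, rose by 1.25 (SE 0.14), and Cfl1 at -0.60 (SE 0.27) did not pass the test. Some pairs went otherwise. Sypl rose by 1.21 (SE 0.11), and Sypl2, the form of muscle triads, was not called, at -0.45 (SE 0.52). Dnm1, the neuronal dynamin, fell further than the ubiquitous Dnm2, with -2.61 (SE 0.38) and -0.46 (SE 0.14), and the Dnm2 call was lost without DM_25mM-1 (-0.44) or GM_25mM-3 (-0.31). Rtn4 and Rtn2 both rose, by 1.03 (SE 0.14) and 1.06 (SE 0.18). Parvb changed by -1.04 (SE 0.22), a call lost without the intensity trend in limma (-1.04), and Eef1a2, the elongation factor of mature muscle, was not called, at 0.18 (SE 0.24).

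**Figure D4:**
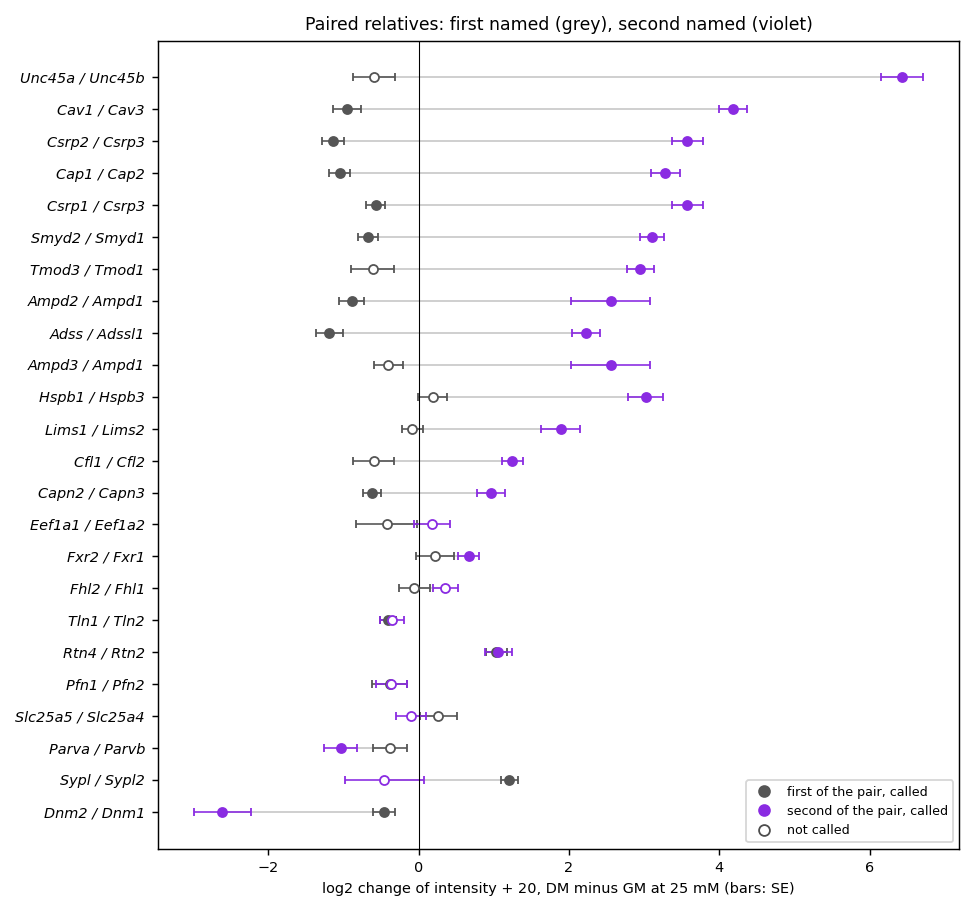
Log2 change of intensity plus 20 (DM minus GM at 25 mM, bars SE) for both members of 24 pairs of related genes, the first named in grey and the second in violet, filled where called. In 20 of the 24 pairs, among which Ampd1 and Csrp3 recur, the second lies to the right of the first. Dnm2/Dnm1 lies furthest the other way.

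Whether these changes differ from those at 5 mM glucose was tested with the interaction, the change at 25 mM minus that at 5 mM, which shares no culture between its sides. It was called for 58 genes, 0.451% of those tested, and 16 of them are named here. Mss51, a mitochondrial protein of muscle, had the largest difference of the 16. At 25 mM it read 39.9, 25.2 and 36.6 in GM and 1452, 1749 and 1894 in DM, and at 5 mM 90.7, 48.2 and 58.7 in GM and 74.8, 216 and 185 in DM. Its change was 4.996 (SE 0.37) at 25 mM and 0.98 (SE 0.37) at 5 mM, a difference of 4.01 (SE 0.52) with adjusted p = 0.00503. Il17b rose by 4.22 (SE 0.20) at 25 mM and 2.35 (SE 0.20) at 5 mM (adjusted p = 0.0087 for the difference), and Ckb by 3.97 (SE 0.20) and 2.56 (SE 0.20) with an adjusted p of 0.0444 for that difference. Col4a1 and Col4a2 were higher in DM at 25 mM and were not called at 5 mM, where Col4a2 read 369, 341 and 349 in GM and 389, 426 and 375 in DM. Their differences were 1.05 (SE 0.19) and 0.98 (SE 0.15), with adjusted p = 0.0225 and 0.0087. Itgb1bp2, the first of the ranked rises at 25 mM, was also a large rise at 5 mM, 5.21 (SE 0.17), with a difference of 1.20 (SE 0.23). Plaat3 rose by more at 25 mM (difference 1.24), Csf1 fell by less (0.98), as did Cenpa, the centromere histone (1.43). Ephx1, microsomal epoxide hydrolase, fell by more (-1.05). The others were Bhlhe40 (1.53), Col1a1 (1.86), Fstl3 (1.36), Il17ra (1.21), the muscle phosphoglycerate mutase Pgam2 (1.37) and the magnesium carrier Slc41a3 (-1.78). Of the 4 low-18S cultures 2 are in GM at 5 mM, and 2 of the 16 differences were called within the 8 others. There GM at 5 mM keeps 1 culture, which is assumed to vary like the cultures of the remaining groups. When 1 culture of 25 mM was left out, between 6 and 12 of the 16 were called, the fewest without DM_25mM-1. Those of Mss51, Il17b, Col1a1, Col4a2, Ephx1 and Plaat3 were called whichever 1 of these 6 cultures was left out. That of Il17ra was called in none of these fits, and those of Ckb, Fstl3, Itgb1bp2, Pgam2 and Slc41a3 in 1 each: Ckb, Itgb1bp2 and Pgam2 without DM_25mM-3, and Fstl3 and Slc41a3 without GM_25mM-2. All of these fits keep every 5 mM culture, so they do not address the low 18S signal there. Within the 8 high-18S cultures the differences of Mss51, Il17b and Col1a1 were 4.09, 2.08 and 1.77. Those of Col4a2, Ephx1 and Plaat3 were 1.07, -1.02 and 1.19.

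**Figure D5:**
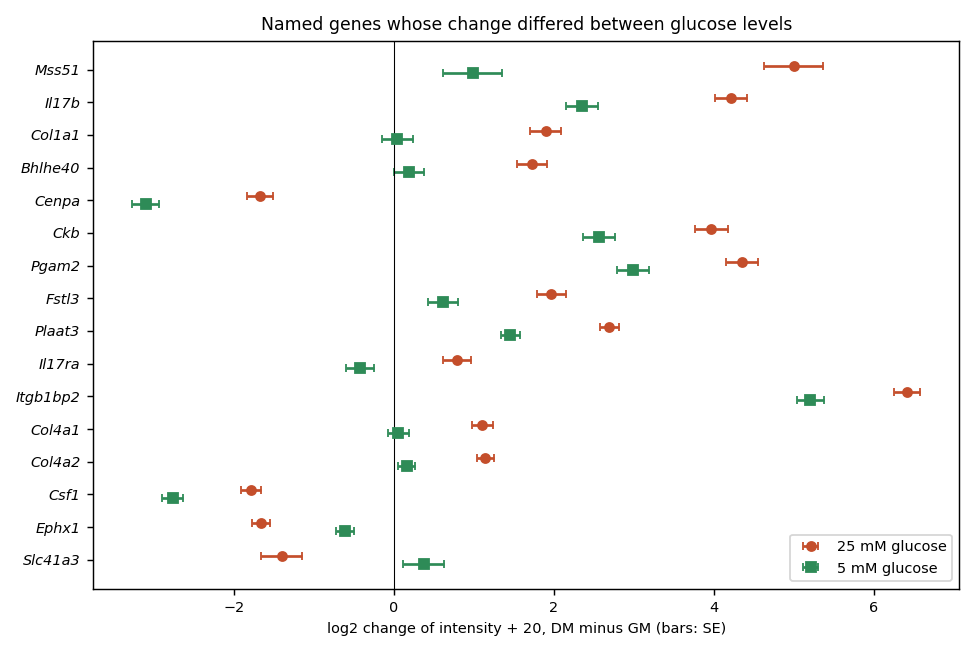
Log2 change of intensity plus 20 (DM minus GM, bars SE) at 25 mM (red circles) and 5 mM glucose (green squares) for the 16 named genes whose change differed between the glucose levels. Mss51 shows the widest gap, 4.996 against 0.98, and Itgb1bp2 rises at both.

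Markers of other cell types were read beside these groups. The lists hold 18 neuronal, 16 endothelial and blood, 9 adipocyte, 13 bone and 18 smooth muscle or fibroblast genes of the arrays. Only those above the intensity filter were tested. None of the tested markers read 0 in any culture compared, but passing the filter makes such a reading unlikely. This says nothing about detection of the markers below the filter. Of 11 neuronal and glial markers tested 2 were lower and 0 higher, and 1 was lower without DM_25mM-2, DM_25mM-3, GM_25mM-1 or GM_25mM-3, with median centring, with quantile normalization or with the replicate block. Their summed intensity was 2357 to 2410.0 in GM and 817 to 1220.0 in DM, and Stmn2 carried most of the fall, beside Syn1 at -0.78, looked up after its values were seen. The 4 endothelial, blood and macrophage markers tested had no call, with summed intensities of 238 to 299 in GM and 134 to 259 in DM, and the lowest p was that of Kdr at -0.37 (SE 0.18). Of 3 adipocyte markers 2 fell, Cebpa at -1.91 (SE 0.20) and Lpl at -1.13 (SE 0.20), and the sums were 334 to 506 in GM and 98.9 to 164 in DM. Of 6 bone and cartilage markers 1 fell, Sox9 at -0.63 (SE 0.19), and its call was lost without DM_25mM-3 (-0.53) or GM_25mM-3 (-0.52). Smooth muscle and fibroblast markers had 5 of 8 higher and 1, S100a4, lower (2 with quantile normalization), with Acta2, smooth muscle actin, at 1.35 (SE 0.35), Tagln at 1.94 (SE 0.20), Smtn at 1.34 (SE 0.13), Col1a1 at 1.90 (SE 0.19) and Des also higher. The sums of this list overlapped, 23450.0 to 25490.0 in GM and 16910.0 to 27640.0 in DM. Acta2, Tagln and Des are also expressed by differentiating skeletal muscle cells, and the part of other cell types in the results was not tested.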

How the data were processed

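RNA of C2C12 cultures in GM or DM was measured on 2 array designs, MA and MB. The deposited tables hold 1 linear intensity per probe set, which the authors had scaled to a trimmed mean near 150 on each array, as the values show; the software and background correction are not given in the sources used here. Values were taken as log2(intensity + 20). Probe sets above the 40th percentile of mean intensity were fitted per design in limma 3.58.1 (R 4.3.3) with 4 group means over all 12 cultures, a trended prior and Benjamini-Hochberg adjustment; a call needs an adjusted p under 0.05. Genes were named from the platform annotation, and each was read by its brightest tested probe set, MA preferred. Named genes are the 15 largest rises and falls on MA and 10 on MB without overlap between groups and outside the known markers. Up to 4 rises and 4 falls per list, also without overlap, were added (in a list with no call, its lowest p). Both members of each pair were also named, and among all of these the ones whose change differed with glucose are listed. The cultures and lists were chosen with earlier results of these data known. In data simulated at these means and spreads, the test recovered 82% of 2-fold changes on MA and 15.3% on MB. The simulation changed far fewer probe sets than were called here, and only ones above the median intensity. Recovery in this comparison may therefore differ. Pseudocount, filter, scaling, prior, samples, weights, replicate number, 18S signal and single cultures were varied. The results of 1 gene group are not reported here.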

Additional observations from a re-analysis of the deposited data

Results flagged for a closer look

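In 16 named genes the change from GM to DM at 25 mM glucose differed from that at 5 mM by the interaction test in limma with Benjamini-Hochberg adjustment. The values are the log2 change at 25 mM minus that at 5 mM. The positive difference was 4.01 (adjusted p 0.00503) for Mss51, 1.87 (adjusted p 0.0087) for Il17b, 1.86 (adjusted p 0.00834) for Col1a1 and 1.53 (adjusted p 0.0217) for Bhlhe40. It was 1.43 (adjusted p 0.0157) for Cenpa, 1.41 (adjusted p 0.0444) for Ckb, 1.37 (adjusted p 0.0454) for Pgam2, 1.36 (adjusted p 0.0339) for Fstl3 and 1.24 (adjusted p 0.00769) for Plaat3. For Il17ra it was 1.21 (adjusted p 0.0456), for Itgb1bp2 1.20 (adjusted p 0.0347), for Col4a1 1.05 (adjusted p 0.0225), for Col4a2 0.98 (adjusted p 0.0087) and for Csf1 0.98 (adjusted p 0.0288). It was negative for Ephx1, -1.05 (adjusted p 0.0087), and for Slc41a3, -1.78 (adjusted p 0.0454). The signs held in every setting tried, but many calls did not. Among the other settings the difference was called for Il17ra and Slc41a3 in 5 of 17, Pgam2 in 6 of 16, Itgb1bp2 in 6 of 17, Ckb in 7 of 17, Fstl3 in 8 of 17. It was called for Csf1 in 9 of 17, Col4a1 in 11 of 17, Il17b in 14 of 16, Bhlhe40 and Cenpa in 14 of 17, Col1a1 in 15 of 16, Col4a2, Ephx1, Mss51 and Plaat3 in 16 of 17.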

How the results depend on the processing

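Of 355 named genes that were called, between 305 and 355 kept call and direction over the settings tried and none changed sign; the 305 are all that the 60th percentile filter tests. Called probe sets on MB fell from 936 to 620 without the intensity trend in the prior. On MA they ranged from 3864 to 5669, and when 1 culture was left out from 4112 to 4166 on MA and 721 to 771 on MB. The 883 called list members ranged from 769 to 1021. Median centring gave 55.3% of calls as higher in DM, against 46%. The count of probe sets whose change differed with glucose was the least stable. It was 75, and it was 41 without the trend, 333 with array weights, 130 with the 18S batch as a factor, 17 within the high-18S cultures and 30 to 61 when 1 culture was left out. Within the high-18S cultures fewer arrays were fitted, and the cause of the other moves was not tested. The titles do not say whether the replicate numbers pair the cultures. Deviations of same-numbered DM and GM cultures correlated at -0.05 to 0.06, and those of all DM and GM combinations at -0.10 to 0.06. So few cultures cannot settle whether they were paired. With a replicate block 4456 probe sets on MA, 867 on MB and 30 differences with glucose were called, and 349 named genes kept their call. A background correction was not run, because the files hold processed intensities. Fewer genes were called on MB, where cultures of a group also correlated less; the cause was not tested.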
